A study of Sus scrofa with 24 samples.

Results

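TUSC5 and 5 genes of insulin-regulated glucose uptake were followed in pig muscle that held much or little fat between its fibres. The genes were taken by symbol: TUSC5, SLC2A4, INSR, IRS1, AKT2 and TBC1D4. The deposited table lists 5 of the 6, as 12 of its 22154 transcripts and 5 of its 12017 gene sums, and TBC1D4 has no entry of its own. The animals were F1 pigs of a cross of 8 Duroc boars with 112 Luchuan sows, a population of 265 reared on 1 farm and 1 diet and slaughtered at 210 ± 6 days. Longissimus dorsi, the loin muscle, was taken 25 minutes after death from 12 animals labelled high and 12 labelled low in intramuscular fat (IMF). Each library is 1 animal, numbered within its group in accession order, and no fat percentage per animal is used here. TUSC5 was selected on its higher FPKM in high IMF muscle and the others as genes of the same route, so its difference between the groups is given as a description and is not tested again.

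Insulin binds its receptor, encoded by INSR, which phosphorylates adaptor proteins such as the product of IRS1. The adaptor recruits phosphoinositide 3-kinase, and its lipid product activates the kinase AKT2. AKT2 phosphorylates the Rab GTPase-activating protein TBC1D4 and so releases vesicles carrying the glucose transporter GLUT4, the product of SLC2A4, to the cell surface of muscle fibres and fat cells. TUSC5, later renamed TRARG1, encodes a membrane protein of these vesicles in fat cells and belongs to the CD225 (dispanin) family, whose other members include the interferon-induced IFITM proteins.

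Values are taken as FPKM, a unit inferred from them, in which read coverage is scaled to transcript length and library size. Levels of different genes are thus set beside each other per length. A gene level is the sum of its listed transcripts. The sums over all transcripts ran from 351119 to 415572 per library. The table states no depth, and the step between low values put it at an estimated 32.9 M to 40.8 M reads per library. On that estimate TUSC5 rested on 94.1 reads in the animal of its lowest level and on 1938 in the animal of its highest. High IMF animal 7 and low IMF animal 10 stood apart: their 10 most abundant genes took 20.2% and 18.5% of FPKM, against 24.7% to 33.03% in the other 22. Muscle was recognisable in every library, with the fibre actin gene ACTA1 at 21138 ± 7005 FPKM in high and 27725 ± 7213 FPKM in low IMF (SD, n = 12 each), and at no less than 1012 FPKM in any animal. The myoglobin gene MB, although a muscle gene, was listed at 0 in 4 of the 24 animals and reached at most 2.35 FPKM.

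TUSC5 was the member that stood apart between the groups. Its level was 2.87 FPKM in the lowest, 6.61 in the median and 15.01 in the highest high IMF animal. In low IMF it was 0.766 FPKM in the lowest, 2.29 in the median and 7.75 in the highest animal. Every one of the 12 high IMF levels exceeded the low IMF median, which held for 1.68% of all genes tested, and 10 of 12 low IMF animals lay below every high IMF animal. No gene tested had groups wholly apart (0.0%). The groups overlapped through low IMF animal 10, at 7.75 FPKM, low IMF animal 7, at 3.03 FPKM, and high IMF animal 2, at 2.87 FPKM. High IMF animals 5, at 15.01 FPKM, and 3, at 12.2 FPKM, were the highest of the 24.

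The TUSC5 mean was 7.27 ± 3.36 FPKM in high and 2.46 ± 1.83 FPKM in low IMF (SD, n = 12 each), a ratio of 2.96. Without low IMF animal 10 the low IMF mean was 1.98 ± 0.788 FPKM and the ratio 3.68. On the log2(FPKM + 1) scale the difference was 1.29 (SE 0.224), the eighth highest of the 11757 genes tested with limma. That scale understates the change of low genes. Of the 5 members, TUSC5 alone passed the adjusted threshold of 0.05, where 0.051% of all genes tested did so in either direction. Because this comparison chose TUSC5, the count carries no further weight.

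**Figure D1:**
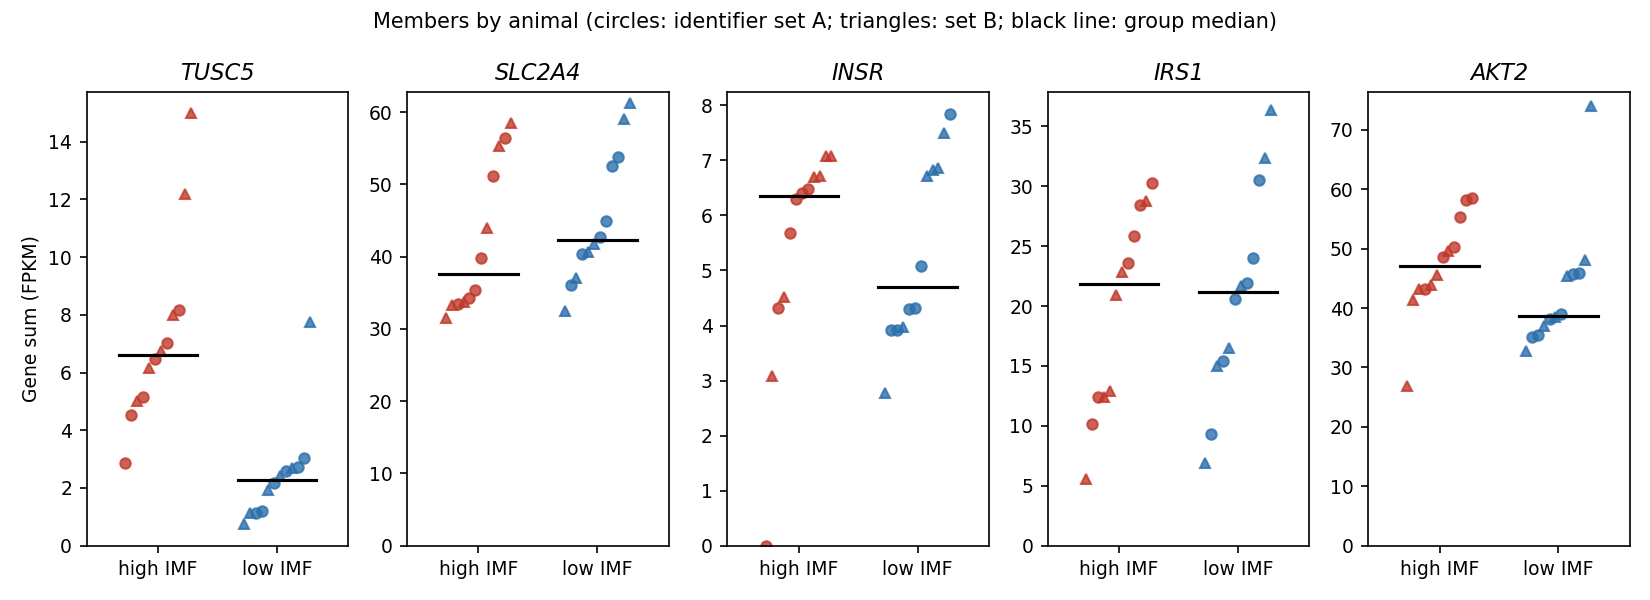
Gene sums in FPKM (vertical axes, each from 0) of the 5 members in the 12 high IMF (red) and 12 low IMF (blue) animals, 1 point per animal, with circles for identifier set A, triangles for set B (the lower and higher leading identifier digits) and a black line at the group median (for INSR with high IMF animal 9 at 0). For TUSC5, 10 of the 12 low IMF points lie below all high IMF points, while the groups share most of their range in SLC2A4, INSR, IRS1 and AKT2.

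TUSC5 is listed as a single reference transcript of 3 exons and 3445 bases on the minus strand of chromosome 12, from 46621117 to 46634332 (Sscrofa11.1). Its gene level therefore does not depend on how reads were divided between isoforms. In the authors' deposited table its fold, low over high IMF, is 0.462, on a scale that differs from the ratio of FPKM means. The p-value of TUSC5 in the authors' deposited table is 3.02e-05, and its 3 q-values are 0.214, 0.097 and 0.051, none under 0.05. The authors' deposited table gives the other 11 member transcripts folds of 0.836 to 1.25, with p-values of 0.155 to 0.719.

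SLC2A4, the transporter that TUSC5 is known to travel with, differed little between the groups. Its level was 31.5 FPKM in the lowest, 37.6 in the median and 58.5 in the highest high IMF animal. In low IMF these were 32.4, 42.3 and 61.3 FPKM. The groups covered nearly the same range, and 5 of 12 high IMF levels exceeded the low IMF median. The means were 42.2 ± 10.4 and 45.2 ± 9.31 FPKM (SD, n = 12 each), and the limma log2 fold change was -0.11, with a 95% interval from -0.35 to 0.14. It was -0.22 with trimmed mean of M values (TMM) scaling between libraries.

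The 2 reference transcripts of SLC2A4 lie on the plus strand of chromosome 12. One has 11 exons and 2746 bases, from 52628450 to 52634974, and the other 10 exons and 3900 bases, from 52628580 to 52634956. The longer held 53.6 ± 4.81% of the SLC2A4 sum in high and 53.7 ± 5.99% in low IMF (SD, n = 12 each). That share differed by -0.15 percentage points between the groups (permutation p = 0.946, adjusted p = 0.948).

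INSR, the insulin receptor gene, was listed at 0 in all 3 of its transcripts in high IMF animal 9. The remaining 11 high IMF animals ran from 3.08 through a median of 6.40 to 7.08 FPKM, and the 12 low IMF animals from 2.78 through 4.70 to 7.85 FPKM. The groups overlapped over nearly their whole range. Of 6183 genes whose mean reached 3 FPKM, 107 were listed at 0 in 1 or more libraries, from 5 to 17 per library and 11 in that animal. The INSR value there may thus be a failed estimate, which was not tested. With the animal the limma log2 fold change was -0.10 (95% interval -0.60 to 0.41), and without it 0.13 (95% interval -0.16 to 0.42), so the sign rests on that library.

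The INSR sum was made mostly of a partial transcript. The 2 reference transcripts of INSR, on the plus strand of chromosome 2, have 22 exons from 71797125 to 71936215 and 21 exons from 71797214 to 71936126. The third is an assembled transcript of 2 exons and 3845 bases from 71879438 to 71939923, and it ends at the last base of the INSR locus in the RefSeq table of the same assembly. It held 58.3 ± 9.12% of the INSR sum in high (SD, n = 11) and 64.2 ± 14.7% in low IMF (SD, n = 12). Both reference transcripts end short of the locus, so neither covers all of it. The sum may therefore overstate the level of INSR, which was not tested. The 2 reference transcripts together came to a median of 2.95 FPKM in the 11 high and 1.55 FPKM in the 12 low IMF animals, with ranges of 0.873 to 3.55 and 0.0684 to 4.11 FPKM.

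The division of the INSR sum between its transcripts varied between animals. The 21-exon transcript of INSR held 32.4 ± 18.4% of the sum in high (SD, n = 11) and 16.6 ± 16.2% in low IMF (SD, n = 12), a difference of 15.8 percentage points (permutation p = 0.0419, adjusted p = 0.304 over 10 shares). The 22-exon transcript of INSR held 9.35 ± 10.9% and 19.2 ± 15.6% (permutation p = 0.0972, adjusted p = 0.324). Each of these reference transcripts was listed at 0 in some animals, the 22-exon one in 5 and the 21-exon one in 4. Neither share passed the adjusted threshold.

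IRS1, the adaptor that links the receptor to phosphoinositide 3-kinase, varied several-fold within each group. Its level was 5.58 FPKM in the lowest, 21.9 in the median and 30.3 in the highest high IMF animal. In low IMF it was 6.87, 21.1 and 36.3 FPKM. The groups overlapped throughout, with 6 of 12 high IMF animals on either side of the low IMF median. The means were 19.5 ± 8.41 and 20.9 ± 8.99 FPKM (SD, n = 12 each), and the limma log2 fold change was -0.11 (95% interval -0.62 to 0.41), or 0.031 without high IMF animal 6. IRS1 is listed as 1 reference transcript of 2 exons and 6345 bases on the minus strand of chromosome 15, from 128245383 to 128308352.

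AKT2, the kinase isoform known for its part in glucose uptake, was the most abundant member on average. Its level was 26.9 FPKM in the lowest, 47.1 in the median and 58.6 in the highest high IMF animal. In low IMF it was 32.8, 38.8 and 74.0 FPKM. In 11 of the 12 high IMF animals AKT2 exceeded the low IMF median, but low IMF animal 10 was the highest of all 24 and high IMF animal 6 the lowest. The count of 11 was not set against its share over all genes, of which 73.4% had a positive log2 fold change. The means were 47.1 and 42.9 FPKM, with coefficients of variation of 18.4% and 25.6% (n = 12 each). The limma log2 fold change was 0.14 (95% interval -0.10 to 0.38), 0.21 without low IMF animal 10 and 0.027 with TMM scaling.

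The 5 AKT2 transcripts lie on the minus strand of chromosome 6 between 48555842 and 48606167. An assembled isoform of 14 exons and 3284 bases held most of the sum, 61.1 ± 9.73% in high and 67.6 ± 5.94% in low IMF animals (SD, n = 12 each; permutation p = 0.0609, adjusted p = 0.304). A reference transcript of 14 exons and 3344 bases held 16.7 ± 7.35% and 12.96 ± 5.09% (permutation p = 0.161, adjusted p = 0.402). The 12-exon transcript, the longest at 5771 bases, held 15.3 ± 6.26% and 12.7 ± 2.67%, and the other two each held under 4% on average. Over SLC2A4, INSR and AKT2 none of 10 shares passed the adjusted threshold, and the 2 shares of SLC2A4 are the same comparison seen from each side.

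**Figure D2:**
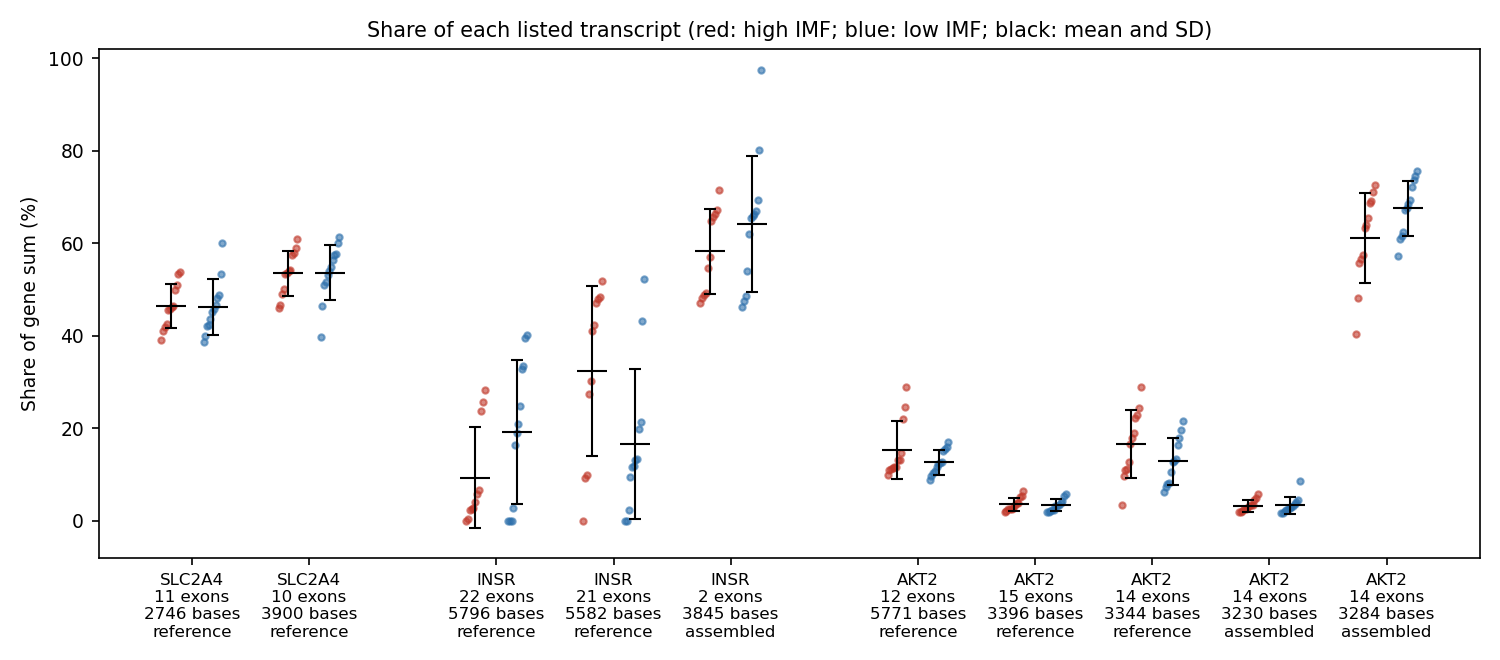
Share of the gene sum in percent (vertical axis) held by each listed transcript of SLC2A4, INSR and AKT2, named by exons, length and kind, with 1 point per animal (red high, blue low IMF) and black marks for the mean and SD. High IMF animal 9 has no INSR share. The SLC2A4 transcripts divide the sum nearly alike in both groups, while the reference INSR transcripts scatter from 0 to 52.4%.

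TBC1D4, the Rab GTPase-activating protein that AKT2 acts on, has no row of its own, but its locus is not empty. RefSeq places TBC1D4 on chromosome 11 from 47543808 to 47760928 in the same assembly. A pair of assembled transcripts of 20 exons on the minus strand span all of it, from 47543476 to 47761271 (7757 bases) and from 47543806 to 47761091 (7250 bases). The table lists them under the symbol of the neighbouring gene COMMD6, whose own reference transcript lies apart, from 47794148 to 47818569. Their values are given as those of the locus, without a test.

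Together these transcripts came to 2.06 FPKM in the lowest, 6.37 in the median and 19.3 in the highest high IMF animal, and to 1.64, 8.33 and 18.7 FPKM in low IMF. The groups overlapped, and 4 of 12 high IMF levels exceeded the low IMF median. The level varied 9.35-fold within high and 11.3-fold within low IMF, against 5.22-fold and 10.1-fold for TUSC5. The division between the 2 transcripts varied widely from animal to animal. The shorter was listed at 0 in 4 high and 1 low IMF animals, and the longer held as little as 0.995% in others. In high IMF animals 1 to 6 the longer transcript of the TBC1D4 locus was at 2.06 to 5.75 FPKM and the shorter at no more than 0.11 FPKM.

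**Figure D3:**
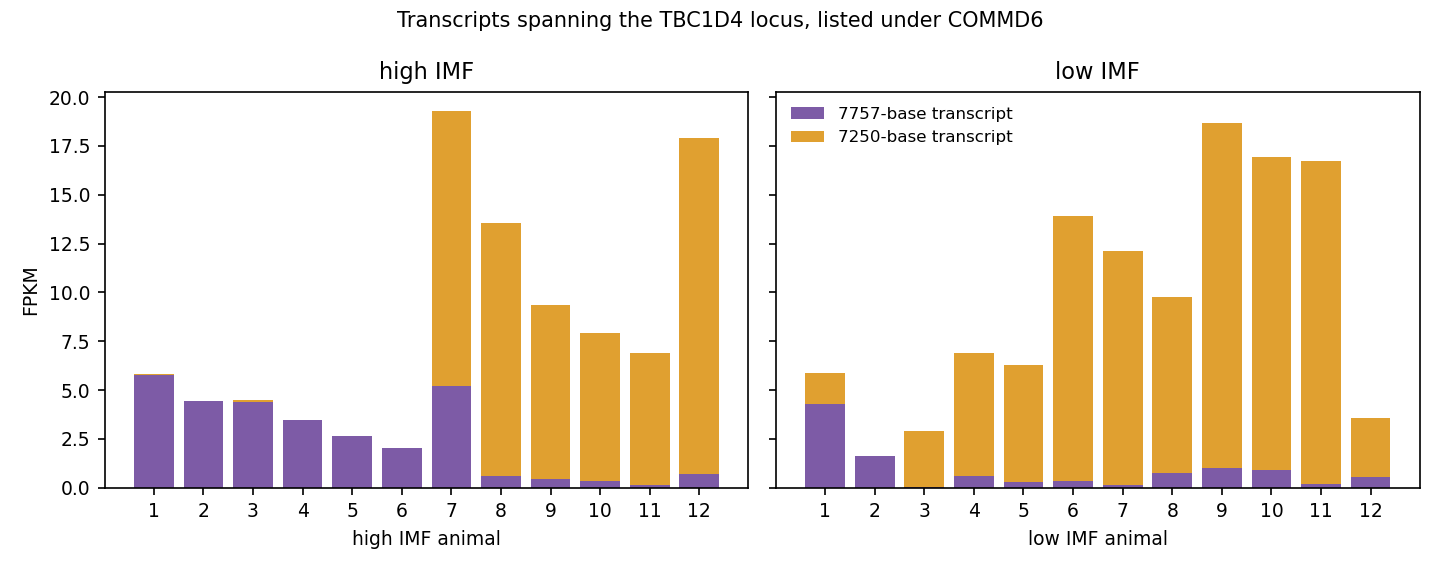
FPKM (vertical axis, from 0) of the 2 assembled transcripts that span the TBC1D4 locus, stacked, in each high IMF (left) and low IMF (right) animal. High IMF animals 1 to 6 and low IMF animal 2 show almost only the 7757-base transcript, and most other animals mainly the 7250-base one.

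In order of mean level over the 24 animals, AKT2 (45.0 FPKM) and SLC2A4 (43.7 FPKM) stood first, followed by IRS1 (20.2 FPKM), INSR and TUSC5 (4.87 FPKM). AKT2 and SLC2A4 did not differ beyond their spread, AKT2 being higher in 11 of 24 animals. SLC2A4 exceeded IRS1 in all 24, and IRS1 exceeded INSR in all 23 animals with an INSR value. The order of INSR and TUSC5 went with the group. TUSC5 was below INSR in 11 of 12 low IMF animals, with a mean log2 ratio of INSR to TUSC5 of 1.31 ± 0.851 (SD). In high IMF it was below INSR in 3 of 11 animals, with a mean log2 ratio of -0.28 ± 0.696 (SD). This rests on the TUSC5 difference that chose the gene, and on INSR sums that hold a partial transcript.

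The first 4 digits of the animal identifiers take 2 values and split each group into 6 and 6. The animals with the lower value are called set A and those with the higher value set B. No label says what the digits mean. TUSC5 was 5.70 ± 1.90 against 2.14 ± 0.799 FPKM within set A and 8.85 ± 3.903 against 2.78 ± 2.54 FPKM within set B (high against low IMF, SD, n = 6 each). As a description of the values that chose the gene, the log2 fold change was 1.08 in set A and 1.51 in set B. The test of the difference between those values gave 0.42 (SE 0.441, limma interaction, adjusted p = 0.998). Between the sets, with the IMF group as a term, TUSC5 differed by 0.31 (SE 0.220, limma adjusted p = 0.816).

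Neither fit by identifier set called any of 11757 genes (0.0%), with 762 (6.48%) at an unadjusted p under 0.05 for the set and 387 (3.29%) for the interaction. AKT2 had the smallest p of the members in the interaction. It was 52.4 ± 6.04 against 39.9 ± 4.85 FPKM within set A and 41.8 ± 7.80 against 46.0 ± 14.9 FPKM within set B (high against low IMF, SD, n = 6 each). The difference between the sets was -0.49 (SE 0.232, limma unadjusted p = 0.0440, adjusted p = 0.998), or -0.35 with TMM scaling. Over all genes tested the median interaction was -0.11 as deposited, with 30.7% positive, and -0.0079 with TMM scaling, with 48.5% positive. Low IMF animal 10, at 74.0 FPKM, belongs to set B. For SLC2A4, INSR and IRS1 the interaction was 0.035 (SE 0.263), 0.26 (SE 0.515) and -0.36 (SE 0.541).

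Within a group the members did not move together past the adjusted threshold. All 10 pairs of the 5 members were correlated on log2(FPKM + 1) in the 12 high and the 12 low IMF animals apart, which gave 20 relations. None had an adjusted permutation p under 0.05 (for r or for rho), and 3 had an unadjusted one. Pearson's r ran from -0.43 to 0.73 with a median of 0.11, and the INSR pairs in high IMF include animal 9 at 0.

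TUSC5 and SLC2A4 had r = 0.077 in high IMF (permutation p = 0.815, Spearman's rho = 0.035, permutation p = 0.921) and r = -0.15 in low IMF (permutation p = 0.648, Spearman's rho = 0.098, permutation p = 0.766). The adjusted values were 0.958 and 0.944 for r and 1.0 for each rho. The 95% intervals of r, -0.52 to 0.62 and -0.67 to 0.46, leave room for a moderate relation of either sign. Without the 2 animals farthest from the TUSC5 median r was 0.16 and 0.24. Within set A r was -0.38 in high and -0.12 in low IMF, and within set B 0.38 and -0.16.

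The strongest relation of TUSC5 with a member was with AKT2 in low IMF, r = 0.70 (permutation p = 0.0248, adjusted p = 0.184; Spearman's rho = 0.27, permutation p = 0.404, adjusted p = 0.830). It rested on few animals, since r was -0.12 without the 2 farthest from the TUSC5 median, -0.43 within set A and 0.94 within set B. INSR and IRS1 in low IMF had the highest r of all pairs, 0.73 (permutation p = 0.00649, adjusted p = 0.130; Spearman's rho = 0.62, permutation p = 0.0372, adjusted p = 0.527). For these r was 0.52 without the 2 farthest animals, 0.61 within set A and 0.81 within set B. IRS1 and AKT2 in high IMF had r = 0.63 (permutation p = 0.0277, adjusted p = 0.184; Spearman's rho = 0.39, permutation p = 0.210, adjusted p = 0.824). Without the 2 animals farthest from the IRS1 median r was 0.23, and it was -0.069 within set A and 0.92 within set B.

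The genes whose levels were most like TUSC5 were found after each group's mean was subtracted, so that the difference between the groups did not enter. The measure was Pearson's r on log2(FPKM + 1) over 24 animals and 8011 genes with a symbol and a mean of 1 FPKM or more, given without a p. FABP4, the fatty acid binding protein of fat cells that vessels also make, came first with r = 0.87. It was followed by ARL6IP1, a protein that shapes the endoplasmic reticulum (0.85), MFSD9 (0.81), SFRP5, a secreted Wnt antagonist of fat cells (0.77), and CYP4V2, a fatty acid hydroxylase (0.76). ADIPOQ, which encodes the fat cell hormone adiponectin, had r = 0.75, LDOC1 0.75 and SRPRB, a subunit of the signal recognition particle receptor, 0.74.

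All of these 8 genes held r of at least 0.60 when any 1 animal was left out, and the lowest value came each time without low IMF animal 10. With TMM scaling they ran from 0.56 for MFSD9 to 0.82 for FABP4. Within the groups FABP4 followed TUSC5 with r = 0.85 in high and 0.89 in low IMF. ADIPOQ did so with 0.74 and 0.76. Genes of 1 library share its depth and scaling, and the median r over the 8011 genes was 0.24 as deposited and 0.0015 with TMM scaling.

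**Figure D4:**
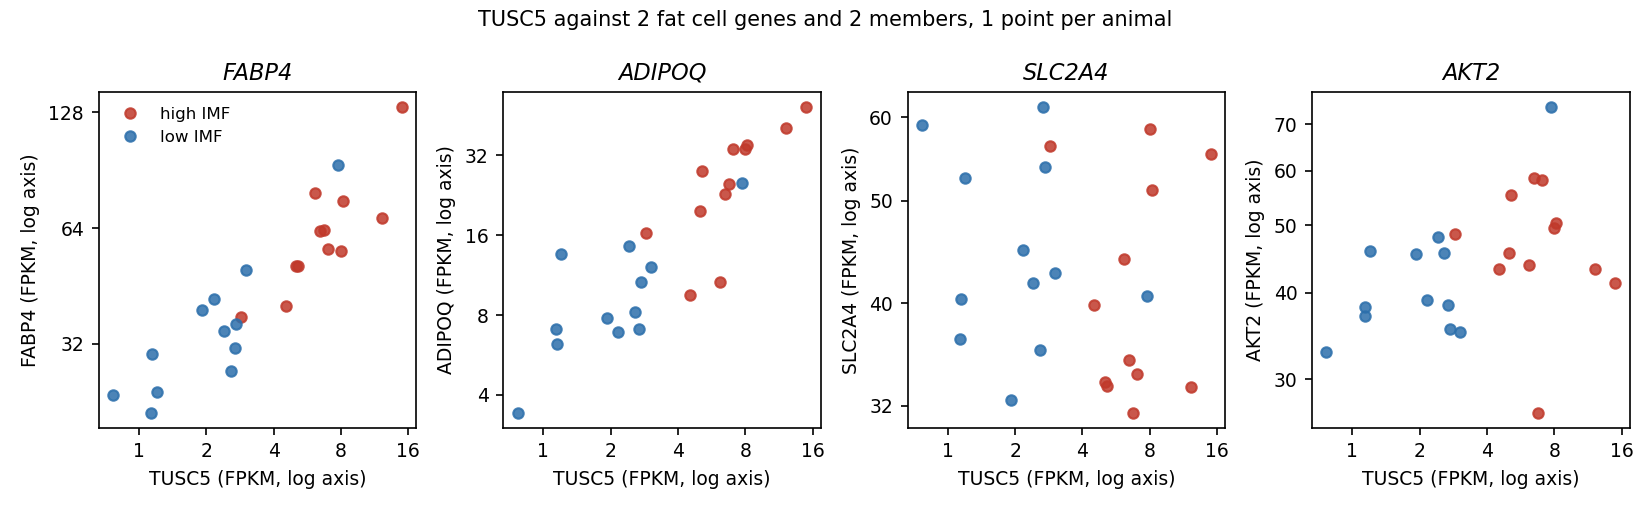
TUSC5 in FPKM (horizontal log axis) against FABP4, ADIPOQ, SLC2A4 and AKT2 in FPKM (vertical log axes), 1 point per animal, red for high and blue for low IMF. FABP4 and ADIPOQ rise with TUSC5 within each group, SLC2A4 does not follow it (r of 0.077 and -0.15), and the low IMF animal at 74.0 FPKM of AKT2 is also the highest in TUSC5 of its group.

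Most markers of fat cells were higher in high IMF on the log2(FPKM + 1) scale, as TUSC5 was. Of 18 adipocyte markers 16 were listed and tested, and 15 had a positive log2 fold change (14 with TMM scaling), where 73.4% of all genes did. LEP alone passed the adjusted threshold over all genes tested, which 0.051% of genes passed. Their median was 0.78, against 0.077 over all 11757 genes tested. Their summed level was 423 to 724 FPKM (median 534) in high and 325 to 583 FPKM (median 422) in low IMF. GPD1, which muscle fibres also make, gave much of the sum at 262 and 249 FPKM. Lipoprotein lipase, LPL, was 30.1 ± 10.3 and 17.4 ± 4.83 FPKM, and FABP4 64.4 ± 24.7 and 37.6 ± 19.5 FPKM. Adipsin, CFD, was 78.3 ± 22.2 and 68.9 ± 19.1 FPKM. The log2 fold change was small in GPD1 (0.056), CFD (0.17) and PLIN4 (0.19) and negative in PLIN1 (-0.088). The mean FPKM of PLIN1 was still the higher in high IMF, 8.75 against 7.50. ADIG was listed at 0 in 4 and PPARG in 1 of the low IMF animals. In bulk muscle, fewer fat cells and less RNA per fat cell cannot be told apart, and the part of fat cell number in the TUSC5 difference was not tested.

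After the group means were subtracted, the 14 adipocyte markers with a mean of at least 1 FPKM had a median r of 0.59 with TUSC5 (0.52 with TMM scaling). The range was -0.15 for GPD1 to 0.87 for FABP4, and 5 of the 14 were among the 100 genes most like TUSC5. The hormone-sensitive lipase gene LIPE had r = 0.68, CIDEA 0.67 and CEBPA 0.64. PPARG, the transcription factor that drives fat cell formation, had 0.13 and PLIN1, which coats fat droplets, 0.42. CFD had 0.019 and the droplet coat gene PLIN4 -0.10. Of the other members AKT2 had 0.30, INSR 0.29, IRS1 0.11 and SLC2A4 -0.034, all below the median of the adipocyte markers. The median over all 8011 genes was 0.24. With TMM scaling these members had -0.073, 0.16, -0.075 and -0.18 in the same order. The value of AKT2 joins -0.16 in high with 0.70 in low IMF.

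The markers of other cell types were counted in the same fit. Positive log2 fold changes were found in 5 of 7 endothelial, 5 of 6 macrophage, 5 of 8 fibroblast, 5 of 6 smooth muscle and pericyte, 3 of 3 blood, 0 of 3 nerve and Schwann cell and 5 of 13 muscle fibre genes tested, where 73.4% of all genes were positive. With TMM scaling, where 49.8% of all genes were positive, the counts were 4 of 7, 5 of 6, 5 of 8, 2 of 6, 3 of 3, 0 of 3 and 3 of 13 in the same order. The adjusted threshold was passed by none of them except 1 nerve gene, which is not described here. The summed endothelial level was 40.04 to 72.4 FPKM in high and 25.8 to 66.3 FPKM in low IMF, and the summed macrophage level 10.2 to 34.9 and 4.22 to 28.6 FPKM.

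The genes most like SLC2A4 by the same measure were CMSS1 (r = 0.68), the kinase gene DYRK1A (0.65), SLC25A25, a mitochondrial carrier of ATP and phosphate (0.64), the scaffold gene CNKSR2 (0.63) and PYCR3, an enzyme of proline synthesis (0.62). None of the 5 is among the 8 most like TUSC5.

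The rest of the route from insulin to glucose entry was read from 8 lists by role, which hold 100 symbols beside the members. These include TRARG1, the later name of TUSC5, which is not listed. Of the symbols 77 were listed and tested, and none passed the adjusted threshold in limma. In all, 59 had a positive log2 fold change (76.6%, against 73.4% of all genes tested), and the median was 0.095 against 0.077. With TMM scaling 38 of 77 were positive (49.4%, against 49.8%). At an unadjusted p under 0.05 there were 6 higher and 1 lower, 9.09% of the 77, where all genes gave 7.68% (6.79% higher and 0.893% lower). The pathway genes as a whole thus lay near the background of all genes.

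Among receptors and adaptors, 5 of 9 tested genes had a positive log2 fold change, or 1 of 9 with TMM scaling. The adaptor CRKL was 24.1 ± 3.85 against 22.6 ± 4.92 FPKM. Of 9 kinases of the phosphoinositide 3-kinase and AKT step 6 were positive, or 5 with TMM scaling. PIK3R1, the regulatory subunit, was 9.17 ± 3.66 against 6.96 ± 2.01 FPKM (limma adjusted p = 0.717), and MAPKAP1, a subunit of the complex that activates AKT, 23.2 ± 3.81 against 21.3 ± 3.08 FPKM.

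Of 9 inhibitors of the signal 6 were positive, or 4 with TMM scaling. The phosphatase gene INPPL1 was 20.6 ± 10.7 against 13.1 ± 9.496 FPKM (0.65, SE 0.507) and the adaptor GRB10 22.4 ± 10.2 against 21.0 ± 7.20 FPKM. Of 15 Rab proteins, their regulators and motors 14 were positive, or 6 with TMM scaling. RAC1, the most abundant at 84.2 ± 10.2 against 80.2 ± 13.6 FPKM, and RAB10, a Rab that TBC1D4 acts on, at 43.2 ± 8.30 against 38.7 ± 8.999 FPKM, differed by less than their spread. RAB13 was 5.11 ± 1.04 against 4.44 ± 1.41 FPKM.

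Among the 12 genes of vesicle cargo and sorting, which include TUSC5 and SLC2A4, 7 were positive, or 5 with TMM scaling. ASPSCR1, whose product TUG tethers GLUT4 vesicles, was 34.6 ± 9.02 against 36.6 ± 10.2 FPKM. Of 10 fusion genes 8 were positive, or 5 with TMM scaling. VAMP8, a vesicle SNARE, was 17.4 ± 4.46 against 13.2 ± 2.47 FPKM (0.36, limma adjusted p = 0.451), and NAPA, a cofactor of SNARE recycling, 56.5 ± 8.59 against 52.6 ± 6.41 FPKM. EXOC7, named after its values were seen as the 1 gene lower at an unadjusted p under 0.05, was 7.07 against 8.48 FPKM.

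Of the other genes of glucose transport, 5 were tested and all 5 were positive, or 4 with TMM scaling. The fructose transporter SLC2A5 was 0.776 ± 0.427 against 0.477 ± 0.481 FPKM (0.29, limma adjusted p = 0.659). TXNIP, which restrains glucose uptake, was 217 ± 81.4 against 206 ± 93.0 FPKM, and its relative ARRDC4 2.73 ± 0.808 against 2.66 ± 1.26 FPKM. Of 13 genes that trap glucose or store it as glycogen 10 were positive with and without TMM scaling. The branching enzyme GBE1 was 4.25 ± 1.34 against 2.99 ± 1.23 FPKM (0.41, limma adjusted p = 0.554) and PGM1 2009 ± 291 against 2081 ± 246 FPKM. PYGM, the muscle glycogen phosphorylase, scattered from 33.4 to 694 FPKM in high and from 9.01 to 693 FPKM in low IMF. SD values in this and the preceding paragraphs on the pathway are over 12 animals per group.

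**Figure D5:**
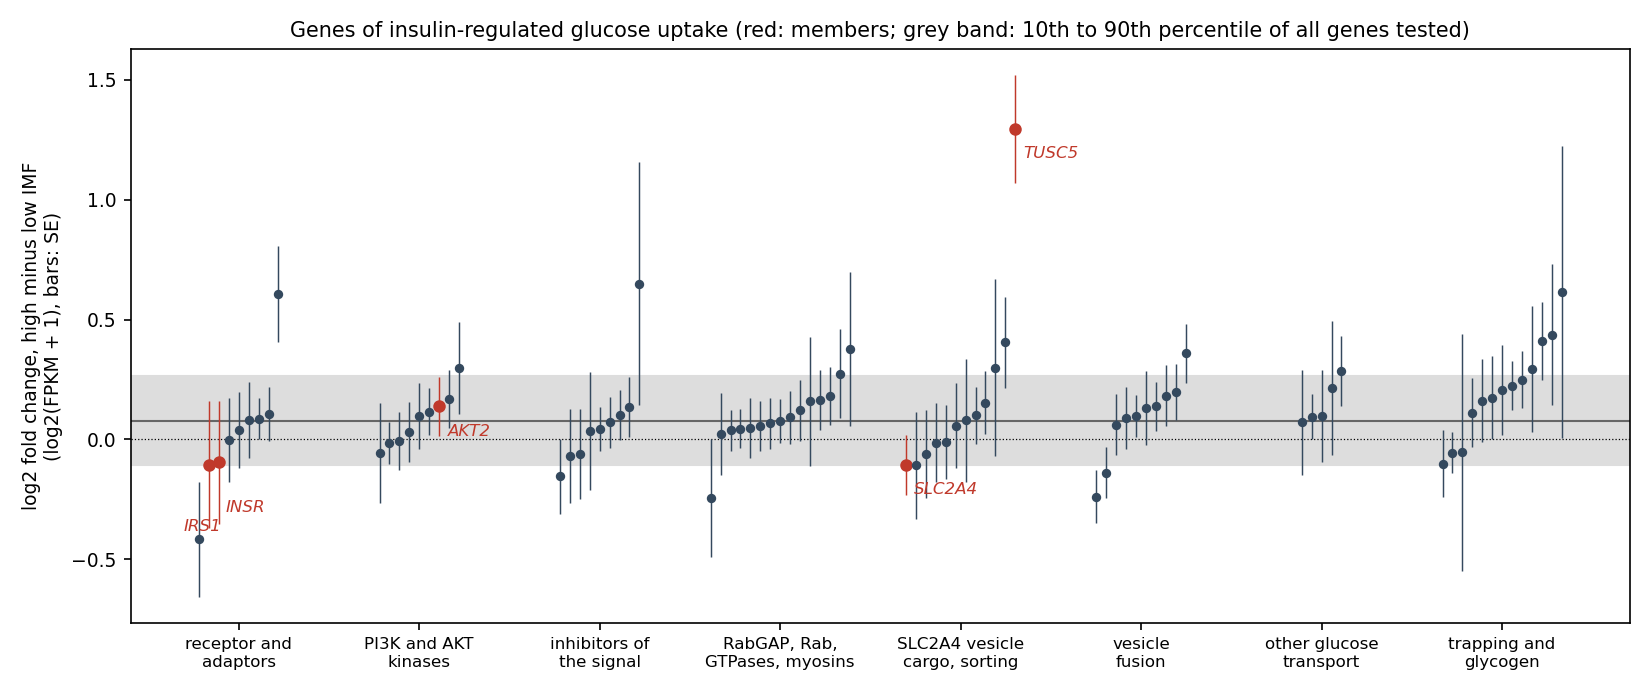
Log2 fold change, high minus low IMF, on log2(FPKM + 1) with SE (vertical axis) of the tested genes of the 8 role lists (horizontal axis), members in red, with the median (line) and the 10th to 90th percentile (band) of all 11757 genes tested. TUSC5, at 1.29, lies above every other gene of the lists, whose values run from -0.42 to 0.65. TUSC5 was selected on this difference and the other genes for their role, so its place is no further result.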

How the data were processed

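RNA of longissimus dorsi from 24 pigs was sequenced as 150-base pairs, per the labels' protocols. HISAT2 2.0.5, StringTie 1.3.3 and the build Sscrofa11.1 are listed in the submitters' processing notes. The authors deposited 1 table of FPKM per transcript, a unit inferred from the values. The deposited fold (a ratio, low over high IMF) and p-value and q-value columns stand per the file headers. No source used here gives their method. TUSC5, the other members and the lists were chosen with earlier results of these data known.

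FPKM was summed per symbol and chromosome. A symbol on several chromosomes was taken at the locus of highest mean. limma 3.58.1 in R 4.3.3 (trend, robust) tested log2(FPKM + 1) where the gene mean reached 0.5 FPKM, with Benjamini-Hochberg adjustment at 0.05. It was also run on simulated data in which genes varied independently, which cannot show how a shift of a whole library acts. Intervals are 95%, as estimate ± 1.96 SE for log2 fold changes and by Fisher's z for r. Correlations and shares used two-sided permutation tests with 100000 resamples (numpy 2.4.6, Python 3.11.15). The first 9 identifier digits are shared by high IMF animals 4 and 8, by low IMF animals 2 and 8 and by low IMF animals 6 and 7. Nothing in the labels says whether these or other animals shared a litter. All animals were treated as independent, except in the alternative with 1 animal per shared 9 digits.

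Depth came from the step of FPKM × length at single-transcript loci, where 74.7% to 84.7% of low values fell within 0.1 base of a whole number, against 33.7% to 46.8% for the next best step. Values are base coverage, so no count model was used. Named were all members, the 2 genes of highest mean and the 1 of smallest p per role list, called genes, the 8 and 5 genes most like TUSC5 and SLC2A4, and the 4 adipocyte markers of highest mean. Some genes under this rule are not reported here. Other genes were named after their values were seen. Alternatives were TMM and upper-quartile scaling, a pseudocount of 0.1, omission of the filter, a minimum mean of 5 FPKM, no robust moderation, identifier digits as a term, 1 animal per shared 9 digits and each animal left out. Leaving out high IMF animal 7 with low IMF animal 10 was added after the data were seen. Sequences of the members were not used here.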

Additional observations from a re-analysis of the deposited data

How the results depend on the processing

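No paired analysis was possible because the labels give no replicate numbers shared by the groups. In high against low IMF, TUSC5 kept a positive log2 fold change in all settings in which it passed the filter. It ran from 1.21 to 1.65 over 8 alternatives and from 1.20 to 1.43 with 1 animal left out. These refits use the values that chose TUSC5, so its kept sign carries no further weight. TUSC5 was not tested at a mean of at least 5 FPKM. SLC2A4 stayed between -0.23 and -0.066 and AKT2 between 0.016 and 0.21, while INSR (-0.33 to 0.13) and IRS1 (-0.23 to 0.031) changed sign with 1 animal left out, and none of these 4 passed in any setting. Over all genes, 5 were higher and 1 lower. Genes higher were 3 at a minimum mean of 5 FPKM, which leaves fewer genes, and 18 without high IMF animal 7 and low IMF animal 10. With 1 animal left out they were 3 to 29 (29 without low IMF animal 10, 8 without high IMF animal 2 or 9, 3 without high IMF animal 5). Genes lower were 2 with TMM scaling, 2 with upper-quartile factors, 3 without that pair, and 0 with a pseudocount of 0.1, with identifier digits as a term or with 1 animal per shared 9 digits (100, 108 and 98 lower at an unadjusted p under 0.05), and 0 to 2 with 1 animal left out. The cause of these changes was not tested. The fits by identifier set, the member correlations and the transcript shares gave 0 calls in every alternative run. At 12 animals per group a correlation of a pair near 0 has a 95% interval of more than 0.5 to either side.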

Other observations

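Of the CD225 family to which TUSC5 belongs, 2 of 10 relatives were listed. IFITM2 was 5.62 ± 2.45 FPKM in high and 3.67 ± 2.30 FPKM in low IMF (SD, n = 12 each, limma log2 fold change 0.55, adjusted p = 0.617). In 10 of 12 high IMF animals it exceeded the low IMF median, a count not set against its share over all genes. IFITM3 was 15.6 ± 14.1 and 17.97 ± 13.7 FPKM (-0.22, adjusted p = 0.906). Each encodes an interferon-induced membrane protein. How reads shared by such related genes were counted was not tested.

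Low IMF animal 10, the highest of its group in TUSC5 (7.75 FPKM) and AKT2 (74.0 FPKM), was the highest of 12 in 8 of the 16 adipocyte markers: ADIPOQ, PLIN1, CIDEA, CIDEC, ADIG, FABP4, LIPE and CEBPA. Counted from the highest, it ranked 2 in LEP, THRSP, PPARG and DGAT2, 5 in CFD and LPL, 7 in GPD1 and 10 in PLIN4. These marker ranks are of FPKM as deposited, without TMM scaling. Its summed marker level, of which GPD1 made 216.1 FPKM, was the third of 12 at 516 FPKM. High IMF animal 2, the lowest of its group in TUSC5 (2.87 FPKM), was also the lowest of 12 in FABP4 (37.5 FPKM) and LEP (0.266 FPKM). Counted from the highest, it ranked 11 in CIDEA, 10 in ADIPOQ and PPARG and 9 in PLIN1, ADIG, LIPE and CEBPA. It ranked 8 in THRSP and LPL. In other markers it stood in the middle or above, at 6 in PLIN4 and DGAT2, 5 in CIDEC and 4 in CFD. Its summed marker level was the second of 12 at 643 FPKM, of which GPD1, the highest of its group, made 412 FPKM. With TMM scaling low IMF animal 10 moved from the fifth to the eighth highest TUSC5 level of the 24 animals and stayed the highest in AKT2.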
